A study of Mus musculus with 6 samples.

Results

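The genes described here encode TGF-beta ligands, the proteins that hold those ligands latent in the matrix, a target and a signal transducer of the pathway, measured by RNA-Seq in mouse aortic valves. They were chosen by name and function, though with earlier results of these data known. They are Tgfb1, Tgfb2, Tgfb3, Ltbp1, Ltbp2, Ltbp3, Ltbp4, Tgfbi and Smad3, which makes 9 of the 23107 genes listed. All 9 passed the minimum of 10 counts in at least 3 libraries that 15354 genes passed. Valves came from outbred mice aged 4 months, in 3 control and 3 mutant libraries. The mutants carried both a constitutively active Acvr1 transgene, which Cre switches on, and Nfatc1Cre, a Cre knocked into the Nfatc1 locus, written caAcvr1:Nfatc1Cre in the paper and Acvr1:Nfatc1Cre in the labels. The labels call the controls wild type, whereas the methods define controls as mice lacking the transgene, the Cre or both, so that some control libraries may carry either allele alone. Nfatc1Cre acts in the endocardium and the cells derived from it and at the leaflet-wall junction, so that only some of the cells in these whole-valve samples carry the active receptor. The sources used here do not say how many mice went into a library, and p-values measure only the spread between these libraries.

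TGF-beta ligands are secreted as latent complexes, in which the growth factor stays bound to its own propeptide and, in most complexes, to a latent TGF-beta binding protein that anchors it to fibrillin and fibronectin in the matrix. Integrins, thrombospondin and proteases release the active ligand, which binds a type II and a type I receptor, and the receptors phosphorylate Smad3 and a close relative so that they enter the nucleus. In the heart valves this pathway is known for its part in endocardial-to-mesenchymal transformation during development and in matrix production by interstitial cells later. The active Acvr1 receptor signals through other Smads, those of the BMP branch.

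Library totals were between 46180667 and 55728852 fragments in the controls and between 32218345 and 53129462 in the mutants, and levels are given as CPM, the counts of a gene relative to the library total after TMM scaling. Acvr1, read without telling the transgene from the endogenous gene, was at 49.1 to 67.4 CPM in the controls and 49.9 to 57.9 CPM in the mutants. Markers of valve interstitial cells and fibroblasts summed to between 13290 and 17177 CPM and those of endothelium to between 1690 and 2489 CPM, with 4 of 8 genes higher and 4 lower in the mutants in both lists. Smooth muscle markers were all lower in the mutants by their fitted change, 8 of 8, with sums of 6150 to 13799 CPM in the controls and 2407 to 6202 CPM in the mutants, and control replicate 2 held the highest sum and mutant replicate 1 the lowest. Macrophage markers were higher for 8 of 8 genes, with sums of 1428 to 1611 CPM in the controls and 1890 to 2048 CPM in the mutants, so that the groups did not overlap. Cardiac muscle markers, 8 higher and 1 lower, reached 12159 to 37470 CPM in the controls and 17552 to 39536 CPM in the mutants. Here control replicate 2 held the lowest sum and mutant replicate 1 the highest, the reverse of the smooth muscle markers. Of the other lists, platelet (5 of 5), lymphocyte (5 of 5) and melanocyte (4 of 4) markers were all higher and adipocyte markers (6 of 6) all lower, while of 4 Schwann cell markers 3 were higher and of the 4 chondrocyte markers that passed the minimum count 2 were. Sums of each of these 6 lists overlapped between the groups. No marker in any list was at 0 in all 6 libraries, although Matn1, a cartilage matrix gene, was at 0 in 5 of them.

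Divided by the length of its annotated exons, the level of Ltbp4 stood far above that of the other 8 genes. Ltbp4 was at 358 ± 56.8 CPM per kilobase (SD, n = 6 libraries, both groups), above 99.3% of the genes tested on the same scale. Tgfb3 came next at 73.6 ± 18.3 CPM per kilobase (SD, n = 6), above 95.1% of the genes tested, and its lowest library lay above the highest library of Ltbp3 on this length, though with the longest transcript as the length their ranges overlapped and the ratio of their means was 1.21 in place of 1.91, with Tgfb3 the higher in each of the 6 libraries. Ltbp3 and Ltbp1 followed at 38.6 ± 6.09 and 37.3 ± 7.86 CPM per kilobase (SD, n = 6), and could not be ordered, as each was the higher in 3 of 6 libraries. Tgfbi was at 32.2 ± 3.82 CPM per kilobase (SD, n = 6), below Ltbp1 in 5 of 6 libraries with overlapping ranges. The lowest levels were those of Ltbp2 at 15.9 ± 3.73, Tgfb1 at 13.5 ± 2.36, Tgfb2 at 10.2 ± 2.06 and Smad3 at 6.84 ± 1.14 CPM per kilobase (SD, n = 6), and the ranges of neighbouring genes among these 4 overlapped. Smad3 was nevertheless below Tgfb2 in all 6 libraries. The order rests on the length used for each gene, and with the longest transcript as the length Tgfb1 lay above Ltbp2 in all 6 libraries while the other 7 genes kept their places. Of the ligand mRNA in these adult valves, then, Tgfb3 was the most abundant per length in every library, and of the latency protein mRNA Ltbp4 was.

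**Figure D1:**
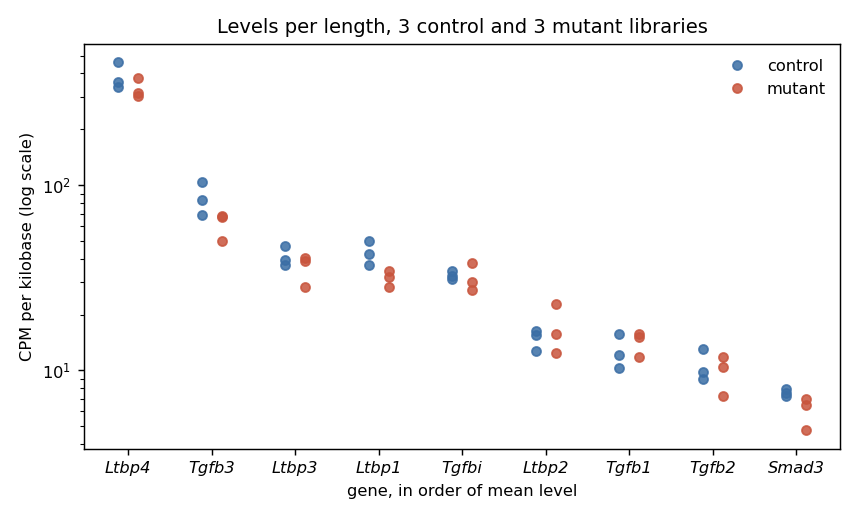
Level of each gene in CPM per kilobase of annotated exon on a log scale, for 3 control (blue) and 3 mutant (red) libraries, 1 point per library, in order of the mean over the 6 libraries. Ltbp4 lies between 301 and 459 CPM per kilobase, above every other gene, and Smad3 lies lowest, between 4.74 and 7.94 CPM per kilobase.

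Mutant and control valves were then compared to ask whether expression of this pathway differed in adult valves with the active receptor. Over all 15354 genes, 0 passed the edgeR quasi-likelihood test at an adjusted p of 0.05, 529 (3.45%) had an unadjusted p under 0.05, and DESeq2 gave 26 genes (0.169%) with an adjusted p under 0.05. None of the 9 pathway genes passed either test, with an adjusted p of 0.999 for each in edgeR and of at least 0.535 in DESeq2. Unadjusted p-values under 0.05 were given by edgeR for 2 of them, Tgfb3 and Ltbp1, both lower in the mutants, where 1.86% of all genes had such a p on the lower and 1.59% on the higher side. In 3 of the 9 (Tgfb3, Ltbp1 and Smad3) every mutant library lay below every control library, against 4.83% of all genes tested in that direction, and in 0 of the 9 did every mutant lie above every control, against 4.04%, or 8.87% in either direction. The fitted change was below 0 for 7 of the 9 genes, where 47.8% of all genes tested had a change below 0, and the median log2 fold change was -0.20 for the 9 and 0.01 for all genes. The count was smaller in some alternatives. With the smooth muscle score, the mean log2 CPM of those markers, as a covariate, 3 genes were below 0. Without control replicate 2 and mutant replicate 1, 4 were. With the cardiac muscle score, the same mean for the cardiac markers, the count stayed at 7. The smooth muscle score holds Acta2, Tagln and Cnn1, which are also in the list of TGF-beta targets below. Its 8 markers were all lower in the mutants. Fits with it therefore cannot separate smooth muscle content from the pathway or from the group. The 95% interval of the log2 fold change lay within -1 and 1 for all 9 genes, so that a change of more than 2-fold in either direction was outside the interval for each. In tissue samples of this kind, fewer cells of a type and less RNA per cell cannot be told apart.

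**Figure D2:**
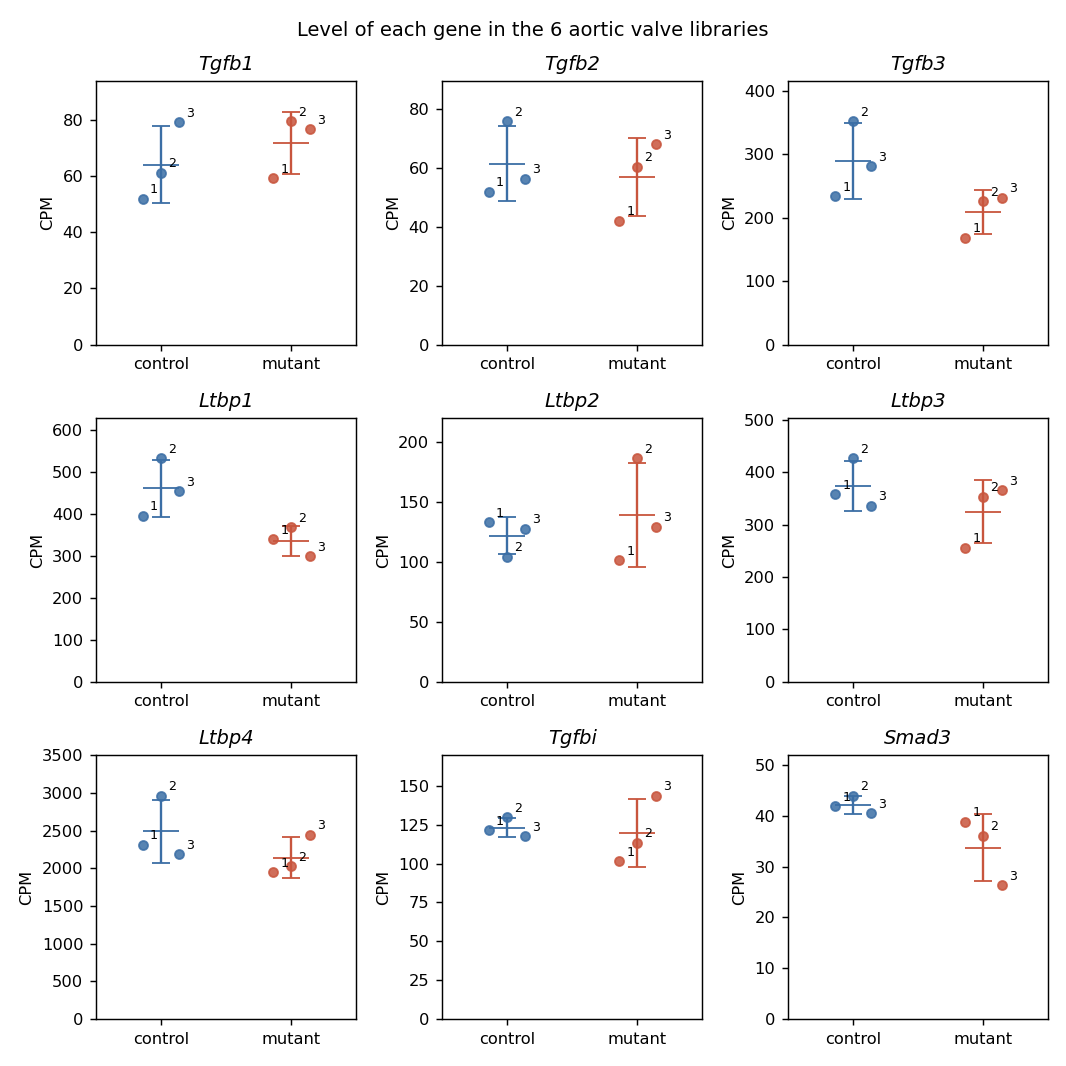
CPM of the 9 genes in control (blue) and mutant (red) libraries, each panel with its own axis from 0, with points numbered by replicate and the mean and SD of 3 libraries as a bar. The groups are apart for Tgfb3, Ltbp1 and Smad3 and overlap in the other 6 panels.

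Of the ligands, Tgfb3, a form expressed in the cushion mesenchyme of the developing heart, had the largest difference. Tgfb3 lies on chromosome 12 of GRCm38 (mm10) from 86056745 to 86079041 on the minus strand. Control replicates 1, 2 and 3 gave 234, 352 and 282 CPM of Tgfb3, and mutant replicates 1, 2 and 3 gave 169, 226 and 232 CPM. All mutants were below all controls, but mutant replicate 3 and control replicate 1 were nearly level. Control libraries averaged 289 ± 59.3 CPM (SD, n = 3) against 209 ± 34.9 CPM (SD, n = 3) for the mutants, which is a log2 fold change of -0.47 (95% interval -0.93 to -0.01, unadjusted p = 0.0463 and adjusted p = 0.999 from edgeR). An exact permutation test of the CPM values gave a two-sided p of 0.1, the smallest that 3 against 3 libraries allow. Control replicate 2, the library with the highest sum of smooth muscle markers, was also the highest for Tgfb3, and without it the log2 fold change was -0.30. With the smooth muscle score as a covariate the change was -0.09 (unadjusted p = 0.554 from edgeR), and without both control replicate 2 and mutant replicate 1 it was -0.17 (unadjusted p = 0.234 from edgeR). With the cardiac muscle score as a covariate it was -0.39 (unadjusted p = 0.0202 and adjusted p = 0.999 from edgeR).

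Tgfb1, the ligand best known from platelets and macrophages and from fibrosis, lies on chromosome 7 from 25687002 to 25705077. Control replicates 1, 2 and 3 gave 52.0, 61.2 and 79.1 CPM of Tgfb1, and the mutants 59.3, 79.5 and 76.7 CPM. The groups overlapped over most of their range, with replicate 1 the lowest in both. The log2 fold change of Tgfb1 was 0.16 (95% interval -0.27 to 0.60, adjusted p = 0.999 from edgeR), and it stayed above 0 in each fit that left out 1 library, from 0.03 to 0.34. With the smooth muscle score as a covariate it was 0.28 (unadjusted p = 0.278 from edgeR). Macrophage markers, given above, were higher in every mutant than in every control, and their part in the level of Tgfb1 was not tested.

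Tgfb2, the ligand most tied to endocardial cushion formation, lies on chromosome 1 from 186622792 to 186705989. Its levels were 51.9, 75.9 and 56.4 CPM in the controls and 42.1, 60.5 and 68.2 CPM in the mutants. Both the highest and the lowest value of Tgfb2 belonged to the libraries at the ends of the smooth muscle marker range, control replicate 2 and mutant replicate 1. The log2 fold change was -0.11 (95% interval -0.62 to 0.40, adjusted p = 0.999 from edgeR), and its direction was not stable, at 0.07 without either of these libraries and 0.36 with the smooth muscle score as a covariate (unadjusted p = 0.0211 and adjusted p = 0.688 from edgeR).

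The proportions of the 3 ligands did not overlap between the groups. Of the summed ligand level per kilobase, Tgfb3 made up 78.2%, 80.5% and 76.6% in the 3 controls, by replicate number, and 72.3%, 71.8% and 71.7% in the mutants. The share of Tgfb3 was thus 78.4% ± 1.95 (SD, n = 3) in the controls and 72.0% ± 0.336 (SD, n = 3) in the mutants, a difference of -6.47 percentage points that was larger than the spread in either group. Tgfb1 took the larger part of the difference, with 11.8% ± 2.53 (SD, n = 3) in the controls and 16.7% ± 0.628 (SD, n = 3) in the mutants. The share of Tgfb2 was 9.74% ± 0.675 (SD, n = 3) and 11.4% ± 0.893 (SD, n = 3), and for both ligands every mutant lay above every control. As shares add up to 100%, the 3 are not separate results. The shares depend on the length used, and with the longest transcript as the length Tgfb3 had 69.7% in the controls and 61.3% in the mutants, and Tgfb1 20.5% and 27.8%, a difference of 7.27 percentage points in place of 4.84. An exact permutation test gave a two-sided p of 0.1 for each, the smallest possible here, and 0.267 adjusted over the 8 quantities tested, which were the shares of 3 ligands and 4 latency proteins and the ratio of their sums. The ratio of Tgfb3 to Tgfb1 counts, which needs neither a length nor a library size, was 4.51, 5.75 and 3.56 in the controls against 2.84, 2.84 and 3.02 in the mutants. For Tgfb3 to Tgfb2 it was 4.51, 4.64 and 4.99 against 4.00, 3.74 and 3.40, with no overlap (exact permutation test, two-sided p = 0.1 for both ratios, 0.3 adjusted over 6 ratios). The difference in the share of Tgfb3 was within -7.39 and -5.45 percentage points when each library was left out in turn, and was -5.64 without both control replicate 2 and mutant replicate 1.

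**Figure D3:**
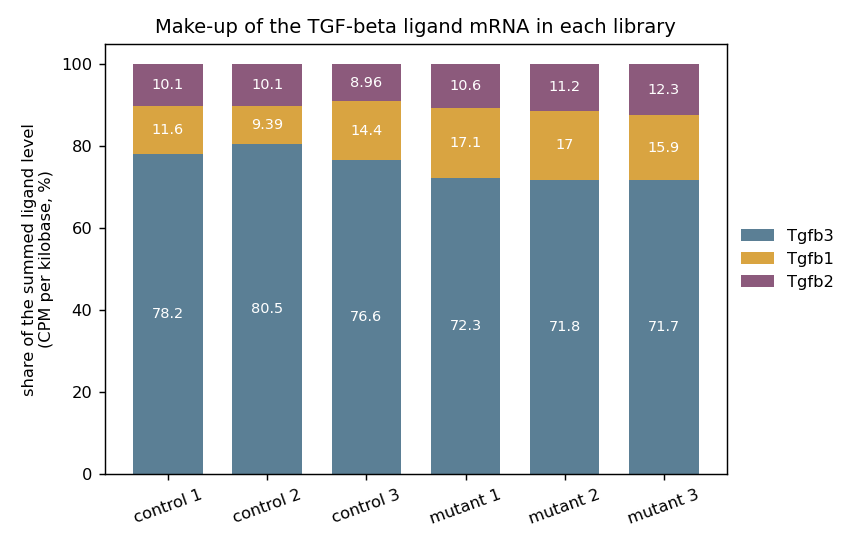
Share of Tgfb3, Tgfb1 and Tgfb2 in their summed level (CPM per kilobase, in percent) in each of the 6 libraries, as stacked bars that reach 100%. Tgfb3 has 76.6% to 80.5% in the controls and 71.7% to 72.3% in the mutants.

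Among the latency proteins, Ltbp1, which binds all 3 ligands and carries them to the matrix, differed most. Ltbp1 lies on chromosome 17 from 75005568 to 75392512 on the plus strand. In the controls it was read at 396, 533 and 455 CPM, and in the mutants at 340, 369 and 299 CPM. The lowest control lay above the highest mutant, and again control replicate 2 was the highest of all. The controls averaged 461 ± 68.4 CPM (SD, n = 3) against 336 ± 34.9 CPM (SD, n = 3) for the mutants, and the log2 fold change was -0.46 (95% interval -0.83 to -0.08, unadjusted p = 0.0238 and adjusted p = 0.999 from edgeR). In DESeq2 the adjusted p of Ltbp1 was 0.535, the lowest of the 9 genes. Leaving out control replicate 1 gave -0.56 and leaving out control replicate 2 gave -0.34, the ends of the range over the 6 libraries. The change was -0.33 (unadjusted p = 0.137 from edgeR) with the smooth muscle score as a covariate and -0.34 (unadjusted p = 0.0669 from edgeR) without both control replicate 2 and mutant replicate 1, so that Ltbp1 kept more of its difference than Tgfb3 did, a contrast that was not itself tested. With the cardiac muscle score as a covariate the change of Ltbp1 was -0.40 (unadjusted p = 0.0121 and adjusted p = 0.972 from edgeR).

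The RefSeq table gives an upstream and a downstream start for Ltbp1, and the deposited counts do not tell transcripts of the 2 apart. The GENCODE annotation used for gene positions begins the gene at 75005568, a short way downstream of the upstream RefSeq start, so that the annotation used here does not hold that start itself. The 250 bases before each start are shown because Ltbp1 had the lowest p of the 9 genes (RefSeq, GRCm38.p6, plus strand, chr17:75005279-75005528 and chr17:75178531-75178780). Capitals mark the core Smad box CAGAC on either strand and the cAMP response element TGACGTCA.
Ltbp1 upstream start: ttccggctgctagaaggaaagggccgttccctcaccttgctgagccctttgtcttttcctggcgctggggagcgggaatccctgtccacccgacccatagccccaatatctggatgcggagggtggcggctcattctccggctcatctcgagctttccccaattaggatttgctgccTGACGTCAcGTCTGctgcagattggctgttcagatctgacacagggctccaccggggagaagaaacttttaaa
Ltbp1 downstream start: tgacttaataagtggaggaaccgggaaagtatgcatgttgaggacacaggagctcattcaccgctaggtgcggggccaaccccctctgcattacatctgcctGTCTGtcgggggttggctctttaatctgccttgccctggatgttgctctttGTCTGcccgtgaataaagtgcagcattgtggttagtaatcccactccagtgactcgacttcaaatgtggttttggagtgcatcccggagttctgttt
The upstream window held 1 Smad box, set a base away from a cAMP response element, and the downstream window held 2 Smad boxes. Of 32851 such windows before annotated starts of all genes, 42.2% held the Smad box and 1.55% the cAMP response element, on either strand. A match of letters is a description and does not show that a factor binds there.

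Ltbp4, known for its part in elastic fibre assembly and as the form that binds mainly Tgfb1, was by far the most abundant, on chromosome 7 from 27305136 to 27337692. It was read at 2316, 2967 and 2186 CPM in the controls and 1948, 2030 and 2448 CPM in the mutants. Mutant replicate 3 lay above 2 of the 3 controls. The log2 fold change of Ltbp4 was -0.22 (95% interval -0.76 to 0.33, adjusted p = 0.999 from edgeR) and was -0.07 without control replicate 2 and 0.060 with the smooth muscle score.

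Ltbp3 (chromosome 19, 5740904 to 5758532), which supports ligand latency in bone and vessels, was also lowest in mutant replicate 1 and highest in control replicate 2. Its levels were 358, 427 and 336 CPM in the controls and 256, 354 and 366 CPM in the mutants. Apart from mutant replicate 1 the mutants were within the control range. The log2 fold change was -0.20 (95% interval -0.63 to 0.22, adjusted p = 0.999 from edgeR), and 0.06 without control replicate 2 and mutant replicate 1.

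Ltbp2 (chromosome 12, 84783212 to 84876532), the member of the family that does not bind latent TGF-beta, shared the low value of mutant replicate 1 but not the high value of control replicate 2. It was read at 133, 104 and 128 CPM in the controls and at 101, 186 and 129 CPM in the mutants. Mutant replicate 1 was the lowest of all, control replicate 2 the lowest control, and mutant replicate 2 alone stood high. The log2 fold change was 0.19 (95% interval -0.34 to 0.73, adjusted p = 0.999 from edgeR), and without mutant replicate 2 it turned to -0.08. Ltbp2 shares 9.34% of its exon bases with an annotated gene on the opposite strand, D030025P21Rik, and the strand setting of the counting is not given in the sources used here, so that reads there may be assigned to either. Annotated genes on the opposite strand that the count table does not list share 7.6% and 4.82% of the exon bases of Tgfb3 (Gm48008 and Gm37804) and 2.14% of those of Tgfb2 (Gm29491).

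The make-up of the latency protein mRNA did not separate the groups. Ltbp4 accounted for 79.4% ± 1.35 (SD, n = 3) of the summed level per kilobase in the controls and 79.7% ± 2.77 (SD, n = 3) in the mutants. The share of Ltbp1 was 8.93% ± 0.809 (SD, n = 3) and 7.65% ± 1.39 (SD, n = 3), that of Ltbp3 8.53% ± 0.241 and 8.59% ± 0.985, and that of Ltbp2 3.15% ± 0.785 and 4.09% ± 1.26 (SD, n = 3). Summed over the family, latency protein mRNA was 4.49 ± 0.561 times the ligand mRNA per kilobase in the controls and 4.90 ± 0.510 times in the mutants (SD, n = 3, exact permutation test, two-sided p = 0.4, 0.64 adjusted over the 8 quantities). Each of these 5 quantities overlapped between the groups. The ratio depends on the length used, at 8.39 and 8.81 from CPM not divided by length and 5.07 and 5.27 with the longest transcript. Single libraries set much of the size of these differences. The share of Ltbp1 differed by -1.28 percentage points between mutants and controls, and by -0.478 without mutant replicate 3 and -0.838 without control replicate 3. That of Ltbp2 differed by 0.940 points, and by 0.213 without mutant replicate 2 and 0.487 without control replicate 2. The ratio of the sums differed by 0.404, and by 0.202 with the longest transcript, 0.138 without mutant replicate 1, 0.151 without control replicate 3, 0.647 without mutant replicate 2 and 0.705 without control replicate 1.

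Smad3, which carries the signal from the type I receptor to the nucleus, lies on chromosome 9 from 63646767 to 63757994 on the minus strand. Its levels were 41.8, 44.0 and 40.4 CPM in the controls and 38.8, 36.1 and 26.3 CPM in the mutants. The controls lay close together and all mutants were below them, 2 only slightly and mutant replicate 3 clearly. Means were 42.1 ± 1.78 CPM (SD, n = 3) and 33.7 ± 6.59 CPM (SD, n = 3), and the log2 fold change was -0.32 (95% interval -0.69 to 0.05, unadjusted p = 0.0808 and adjusted p = 0.999 from edgeR). The exact permutation test gave a two-sided p of 0.1, the smallest possible. Mutant replicate 3, which has the lowest library total, carried much of the difference, and without it the log2 fold change was -0.17. With the smooth muscle score as a covariate the change was not smaller, at -0.44 (unadjusted p = 0.0796 from edgeR). The window before the start of Smad3 (RefSeq, GRCm38.p6, minus strand, chr9:63757995-63758244) is shown for contrast with that of Ltbp1, with GC boxes, GGGCGG on either strand, in capitals.
Smad3: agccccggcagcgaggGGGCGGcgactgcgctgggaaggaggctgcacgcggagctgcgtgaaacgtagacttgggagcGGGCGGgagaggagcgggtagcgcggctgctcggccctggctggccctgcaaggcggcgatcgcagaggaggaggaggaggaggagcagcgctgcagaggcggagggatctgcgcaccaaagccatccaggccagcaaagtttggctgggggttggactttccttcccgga
It held 2 GC boxes, where 32.7% of all windows held at least 1, and neither the Smad box nor the cAMP response element. Entries were found for 8 of the 9 genes, all but Tgfb3, in 11 windows. The Smad box was present in those of Ltbp1, Ltbp2, Ltbp3, Tgfb2 and Tgfbi.

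Tgfbi, a secreted adhesion protein named for its induction by TGF-beta, lies on chromosome 13 from 56609523 to 56639562. It was read at 122, 130 and 118 CPM in the controls and at 102, 113 and 144 CPM in the mutants. All controls lay within the range of the mutants. The log2 fold change was -0.04 (95% interval -0.38 to 0.30, adjusted p = 0.999 from edgeR), the smallest of the 9. Leaving out mutant replicate 3 gave -0.19, and leaving out mutant replicate 1 turned it to 0.06.

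**Figure D4:**
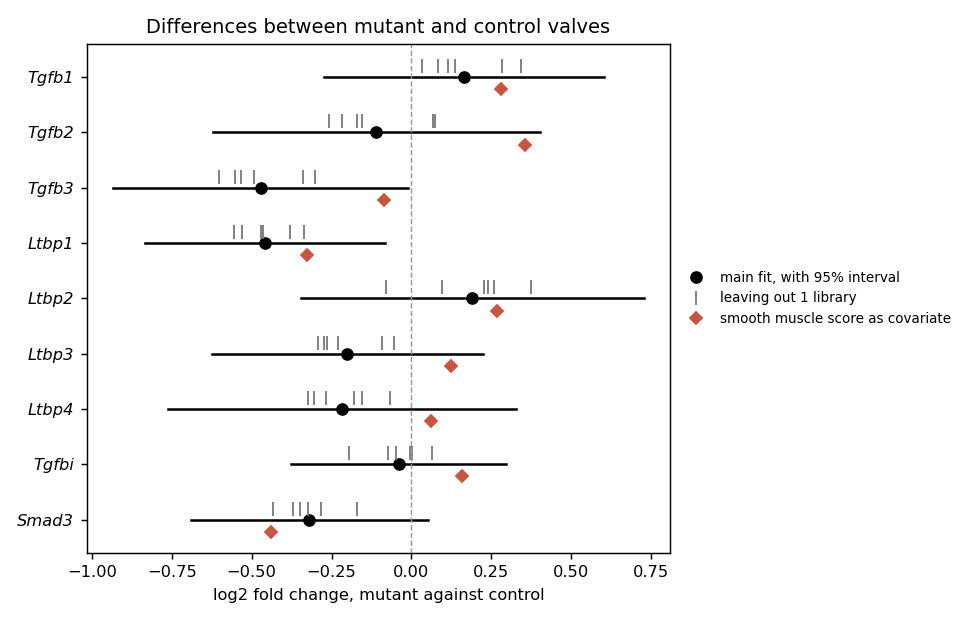
Log2 fold change of each gene, mutants against controls, with its 95% interval (black), the values when each library is left out in turn (grey ticks) and the value with the smooth muscle score as a covariate (red). The interval leaves out 0 for Tgfb3 and Ltbp1, and with the covariate Tgfb3 moves to -0.09, Ltbp1 to -0.33 and Smad3 to -0.44.

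Across the libraries, 6 of the 9 genes had their highest value in control replicate 2 and 6 had their lowest in mutant replicate 1, where 24.4% and 20.1% of all genes tested did. The centred log2 CPM of the smooth muscle markers was 1.07 in control replicate 2 and -1.04 in mutant replicate 1, and within -0.18 and 0.10 in the other 4 libraries. Tgfb3 was at 0.54 and -0.53 in those libraries, Ltbp3 at 0.30 and -0.43, and Tgfb2 at 0.38 and -0.46. In contrast, Smad3 reached its lowest level of -0.50 in mutant replicate 3, and Ltbp1 reached -0.39 in the same library. The covariate fits above give each change at an equal marker score, and whether the marker levels account for these values was not tested.

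**Figure D5:**
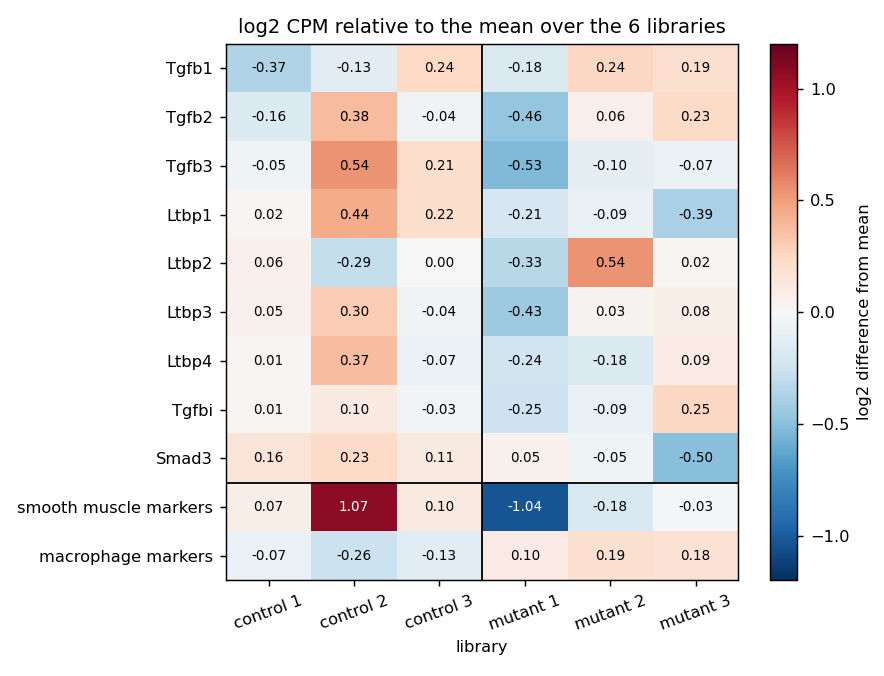
Log2 CPM of each gene and mean log2 CPM of the smooth muscle and macrophage markers in the 6 libraries, relative to the mean over all 6 (red higher, blue lower). The smooth muscle markers stand at 1.07 in control replicate 2 and -1.04 in mutant replicate 1, and Tgfb3 at 0.54 and -0.53 in the same libraries.

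Genes with the most similar profile to each ligand were found by the root mean square distance between centred log2 CPM over the 6 libraries, among 10084 genes with a mean of at least 10 CPM. The closest to Tgfb3 were 0610007N19Rik, Glipr1 and Col4a1, at distances of 0.05, 0.05 and 0.06, where Tgfb3 itself varied by 0.32 about its mean. Col4a1, a basement membrane collagen chain, had a log2 fold change of -0.47 (adjusted p = 0.999 from edgeR), as Tgfb3 had. Since Col4a1 was selected for its closeness to Tgfb3 in the same libraries, this match is not a separate result. Tgfb1 was closest to Ppic, Tnfrsf21 and Prcp, at 0.05 to 0.09, and Tgfb2 to Mpp2, Slc2a10 and Slc25a1, at 0.03 to 0.06. Among the 9 genes the nearest pair was Tgfb2 and Ltbp3, at 0.11, and the farthest Tgfb3 and Ltbp2, at 0.45. With 6 libraries these distances describe the samples only.

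The rest of the pathway was followed in 5 lists with 67 genes in all, each of which could be tested, and 0 of them passed in edgeR or DESeq2. By fitted change 29 were higher and 38 lower in the mutants, with a median log2 fold change of -0.08, and 4 had an unadjusted p under 0.05, all lower, where 1.86% of all genes did. In 7 genes every mutant lay below every control and in 4 genes above, where 4.83% and 4.04% of all genes did.

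Of 10 genes of matrix storage, 6 were lower and 4 higher in the mutants, and the smallest p belonged to Efemp2, an elastic fibre protein also called fibulin-4. Efemp2 was at 87.4, 96.7 and 88.6 CPM in the controls and 59.3, 73.4 and 73.5 CPM in the mutants. Its groups did not overlap, with a difference of -0.40 on the log2 scale (standard error 0.12, unadjusted p = 0.00995 and adjusted p = 0.999 from edgeR). The difference of Efemp2 was -0.22 with the smooth muscle score as a covariate (unadjusted p = 0.0879 from edgeR) and -0.26 without both control replicate 2 and mutant replicate 1 (unadjusted p = 0.0377 from edgeR). Dcn and Bgn, the small proteoglycans decorin and biglycan, were the most abundant of this list, with log2 fold changes of 0.31 and -0.31 (standard errors 0.29 and 0.25). Without control replicate 2 these were 0.18 and -0.13, and Bgn turned to 0.13 with the smooth muscle score. Of 14 genes of ligand activation, 9 were higher and 5 lower. Itgb5, the beta chain of an integrin that can release latent TGF-beta, was at 416, 583 and 402 CPM in the controls and 291, 343 and 350 CPM in the mutants, with a log2 fold change of -0.51 (standard error 0.18, unadjusted p = 0.0271 and adjusted p = 0.999 from edgeR) that was -0.17 with the smooth muscle score and -0.32 without control replicate 2. Itgb1, an integrin beta chain of most adhesive cells, differed by -0.21 on the log2 scale (standard error 0.26), and turned to 0.071 without control replicate 2 and 0.24 with the smooth muscle score. Thbs1, thrombospondin, differed by 0.23 (standard error 0.37), with 183 CPM in control replicate 2 and 565 CPM in control replicate 1, a wider range than that of the mutants. Its difference was 0.70 without control replicate 1, -0.082 without control replicate 2 and -0.32 with the smooth muscle score.

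Of the 6 receptor genes 5 were lower, and Tgfbr3, the co-receptor betaglycan that presents ligand to the signaling receptors, had the smallest p. Tgfbr3 was read at 116, 142 and 115 CPM in the controls and 102, 93.1 and 107 CPM in the mutants, again without overlap, a difference of -0.30 on the log2 scale (standard error 0.12, unadjusted p = 0.0393 and adjusted p = 0.999 from edgeR). The difference of Tgfbr3 was -0.17 with the smooth muscle score as a covariate (unadjusted p = 0.275 from edgeR) and -0.19 without control replicate 2 (unadjusted p = 0.0956 from edgeR). Eng, endoglin, a co-receptor of endothelial cells, was the receptor gene on the higher side, at 0.20 (standard error 0.19), and Tgfbr2, the type II receptor, was at -0.06 (standard error 0.17). Leaving out single libraries gave 0.10 to 0.32 for Eng and -0.20 to 0.055 for Tgfbr2, which was at 0.16 with the smooth muscle score. Of 13 intracellular genes, 8 were lower and 5 higher, with 0 under an unadjusted p of 0.05 and a median log2 fold change of -0.07. The most abundant were Ski, a repressor of Smad signaling, which differed by 0.26 on the log2 scale (standard error 0.51), and Pmepa1, a feedback inhibitor induced by TGF-beta, which differed by -0.33 (standard error 0.18). Ski was at 75.2 CPM in control replicate 1 and between 249 and 352 CPM in the other 5 libraries, and without control replicate 1 its difference turned to -0.17. The difference of Ski was 0.86 with the smooth muscle score and 0.53 in limma-voom. Pmepa1 was at -0.19 without control replicate 2, -0.055 without both that library and mutant replicate 1, and 0.023 with the smooth muscle score.

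Of 24 target genes 14 were lower and 10 higher, with a median log2 fold change of -0.13. Angptl4, a secreted inhibitor of lipoprotein lipase that TGF-beta induces, was read at 29.1, 21.4 and 24.6 CPM in the controls and 10.8, 16.6 and 16.5 CPM in the mutants. It had the smallest p of the pathway genes, with a log2 fold change of -0.78 (standard error 0.21, unadjusted p = 0.00734 and adjusted p = 0.999 from edgeR), and -0.69 with the smooth muscle score as a covariate. Angptl4 is also expressed in adipocytes, whose markers were lower in the mutants for 6 of 6 genes. The sums of these markers overlapped, at 519, 1338 and 517 CPM in the controls and 498, 385 and 1018 CPM in the mutants. Control replicate 2, with the highest of these sums, had the lowest Angptl4 of the controls. The part of adipocytes in the difference of Angptl4 was not tested. Acta2 and Col3a1, a smooth muscle actin and a fibrillar collagen chain and the most abundant targets, differed by -0.77 and -0.27 on the log2 scale (standard errors 0.54 and 0.28), values which turned to 0.42 and 0.16 with the smooth muscle score, a list that holds Acta2 itself. Without control replicate 2 alone they were -0.20 and -0.041.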

How the data were processed

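Total RNA of aortic valves from 3 control and 3 mutant mouse samples was sequenced by the authors on an Illumina instrument. Reads were aligned to mm10 and genes quantified with Cufflinks and Cuffdiff 2.1.1. The submitters' processing notes also name TopHat2 2.0.13 and Bowtie2. The values deposited by the authors are estimated counts of fragments per gene, with no scaling for library size. Between 1.66% and 1.87% of values per library were not whole and were rounded. Groups and replicate numbers were taken from the labels.

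The 15354 genes that reached 10 counts in 3 or more libraries were fitted with edgeR 4.0.16 in R 4.3.3 (TMM, quasi-likelihood F test, no covariate, Benjamini-Hochberg adjustment over all of them, threshold 0.05). The common biological coefficient of variation was 0.278. Cuffdiff, which the study used, needs the alignments and was not run. A standard error is the fitted log2 fold change divided by the root of F. The steps were checked on simulated counts. Of the listed genes, 97.7% were matched to GENCODE M21 (GRCm38, the assembly of mm10) for positions and lengths.

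Alternatives were DESeq2 1.42.0, its size factors in edgeR, upper-quartile scaling, other count filters, a block for the replicate number, limma-voom (limma 3.58.1) alone or with quality weights per sample, the mean log2 CPM of smooth or cardiac muscle markers as a covariate, and each library left out in turn. Leaving out control replicate 2 and mutant replicate 1 together was added after seeing the data. The gene set, the 5 pathway lists, the 11 marker lists and the tests were chosen with earlier results of these data known. In each pathway list the text names up to 3 genes per direction with the smallest unadjusted p under 0.05, and, where fewer than 2 were so named, the 2 most abundant of the genes not already named. For each ligand it names the 3 genes with the nearest profile and a mean of at least 10 CPM. Col4a1 was singled out among these after its values were seen. Whether same-numbered libraries pair was checked from deviations about the group means, whose correlations were 0.373, 0.171 and 0.0194 over genes for replicates 1, 2 and 3, so they were not treated as pairs.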

Additional observations from a re-analysis of the deposited data

How the results depend on the processing

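No gene passed in edgeR or limma-voom under any alternative run, including each fit without 1 library, whereas DESeq2 gave 26 genes and an unadjusted p under 0.05 gave 529, and none of the 26 was among the 9 genes described. Over 17 alternatives, 139 of 153 log2 fold changes of these 9 genes kept their direction and 14 turned. The number below 0, which was 7, was 3 with the smooth muscle score as a covariate and 4 without control replicate 2 and mutant replicate 1 together, and between 5 and 8 when each library was left out. It stayed at 7 with the cardiac muscle score as a covariate. The number whose groups did not overlap was 3 to 5 when each was left out, where 16.8% to 19.9% of all genes did not overlap, since fewer libraries overlap less often. It was 5 without mutant replicate 3, with 17.2% of all genes, and 4 without both control replicate 2 and mutant replicate 1, with 37.1%. Those 5 were all lower in the mutants, whereas of the 4 genes 3 were lower and 1, Tgfb2, was higher. Tgfb3, Ltbp1, Smad3 and Tgfb1 kept their direction under every alternative. With the smooth muscle score, log2 fold changes turned to 0.36 for Tgfb2, 0.12 for Ltbp3, 0.060 for Ltbp4, 0.16 for Tgfbi, 0.13 for Bgn, 0.24 for Itgb1, -0.32 for Thbs1, 0.16 for Tgfbr2, 0.023 for Pmepa1, 0.16 for Col3a1 and 0.42 for Acta2, and with the cardiac muscle score to 0.0030 for Tgfbr2. Without both control replicate 2 and mutant replicate 1 they turned to 0.25 for Tgfb2, 0.056 for Ltbp3, 0.11 for Tgfbi, 0.030 for Bgn, 0.16 for Itgb1, -0.13 for Thbs1, 0.13 for Tgfbr2, 0.067 for Col3a1 and 0.16 for Acta2. Quality weights in limma-voom gave 0.026 for Tgfb2 and 0.028 for Tgfbi. Leaving out each library gave -0.26 to 0.074 for Tgfb2, -0.078 to 0.37 for Ltbp2, -0.19 to 0.064 for Tgfbi, -0.37 to 0.071 for Itgb1, -0.082 to 0.70 for Thbs1, -0.20 to 0.055 for Tgfbr2 and -0.17 to 0.60 for Ski, and differences in share of -0.395 to 0.584 percentage points for Ltbp3, -0.800 to 1.84 for Ltbp4, -1.70 to -0.478 for Ltbp1 and 0.213 to 1.33 for Ltbp2. The cause of these turns was not tested. With the replicate number as a block, 0 genes passed, and the log2 fold change was -0.47 for Tgfb3, -0.45 for Ltbp1 and -0.34 for Smad3 (adjusted p = 0.901 for each in edgeR). The block changed no call, and not every sample correlated best with its own number. With 3 libraries a group, exact tests cannot go below p = 0.1.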
